A study of Mus musculus with 9 samples.

Results

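Old mice carrying a Sphk2 knockout (KO) were compared with old wild-type (WT) mice by RNA sequencing of haematopoietic stem cells, the marrow cells that give rise to all blood lineages. The comparison holds 6 of the series' 9 libraries: 3 labelled old WT, genotype wild type with no strain given, and 3 labelled old KO, genotype B6N.129S6-Sphk2tm1Rlp/J (Sphk2 cKO), a targeted allele for which the labels name no Cre driver or inducing agent. Mice of both groups were 22 to 24 months old. Each library was made from 1000 sorted marrow cells, lineage-negative, positive for Sca1, c-Kit and CD150 and negative for CD48, with 13 amplification cycles and paired reads of 150 bases. The labels call the 3 libraries of a type technical replicates and name no mouse or litter, so each p-value measures only the spread between these samples, possibly technical. Genes were taken into the comparison with at least 20 counts in 2 or more libraries of either group, which left 20775 of the 52550 genes in the table. The remaining 3 libraries, from young WT mice aged 2 months, entered the fit, where they shared the estimate of spread and the scaling between libraries.

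Sphk2 encodes sphingosine kinase 2, one of a pair of kinases that turn sphingosine into sphingosine 1-phosphate, a lipid that acts inside the cell and, after export, on surface receptors. The series title links sphingosine metabolism with ferroptosis, a death of cells by iron-dependent lipid peroxidation that glutathione peroxidases and iron storage hold back. Immediate early genes, which recur below, encode transcription factors and feedback regulators that cells switch on within minutes of a stimulus, without making new protein first.

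The libraries differed before any gene was compared. Gene counts summed to 5115003, 3145167 and 3448125 for old WT and to 13457369, 11284847 and 17544945 for old KO. Reads outside annotated genes took 80.8% to 87.7% of all counts in old WT and 45.0% to 61.9% in old KO, without overlap (exact permutation test, two-sided, p = 0.1, the smallest that 3 against 3 allows). The density of reads over olfactory receptor genes, silent in blood, served as background. A gene counted as detected above it in a given library from 20 reads on, if these were no fewer than 5 times what the density predicts for its exons. By that measure 1620, 1570 and 1161 genes of the whole table were detected per old WT library and 3595, 3493 and 4853 per old KO library, a ratio of means of 2.74 (exact permutation p = 0.1). With all 6 libraries thinned to the smallest total the means were 1348 and 3478. In such bulk libraries fewer cells of a type and less RNA per cell cannot be told apart.

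Because old WT gene counts hold more background, the choice of scale decides what a fold change means here. Levels are given as CPM, the gene's counts per 1e6 counts in genes. Fold changes are log2 values, old KO minus old WT, from edgeR's quasi-likelihood test with TMM factors, given with their standard error (SE), and a gene is called when its Benjamini-Hochberg adjusted p is under 0.05. TMM set the 13715 genes that were above background in none of the 6 libraries close to equal (median -0.57), and lay above scaling by total counts by a median of 1.63 over all tested genes. Scaling by total counts set the 293 genes above background in all 6 libraries close to equal (median -0.09, against 1.52 with TMM). The median over all 20775 genes was -0.29 with TMM and -1.92 with total counts. A fit limited to the 3183 genes above background in at least 2 libraries of either group had a median of 0.04 and lay 2.95 below the TMM fit for the genes they share.

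With TMM 239 genes rose and 3 fell in old KO, 1.15% and 0.0144% of those tested. With total counts 8 rose (0.0385%) and 0 fell, with 6948 genes on the lower side at an unadjusted p under 0.05, and among the 3183 genes above background 20 rose (0.628%) and 62 fell (1.95%), 13 of the 62 being ribosomal protein genes. All 239 genes that rose with TMM also had a positive total-count fold change, with a median of 4.30 against 6.01 with TMM. That sign was close to fixed beforehand, since the scales differed by a median of 1.63 and the lowest TMM fold change among the 239 was 2.22. Of these 239 genes, 235 were above background in all 3 old KO libraries, 182 in 0 old WT libraries and 28 in all 3 old WT libraries. The count of genes that rose rests on single libraries: it was 3 without young WT library 3, 16 without old WT library 3, 28 without old WT library 1, 63 without young WT library 2, 84 without old WT library 2, 105 without old KO library 3 and 132 without young WT library 1. Without old KO library 1 or 2 it was 261 or 215. Over these 9 runs 65 of the 239 genes were called in 5 or more, and 18 in none. Among the genes described below, Nr4a1, Rhob, Ftl1, Prdx1, Tal1, Eif1, Ifitm2, Actb, Rpl10 and Rplp0 belong to these 18. The 6 old libraries fitted alone gave 0 calls in either direction at the adjusted threshold, with 4053 genes at an unadjusted p under 0.05.

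**Figure D1:**
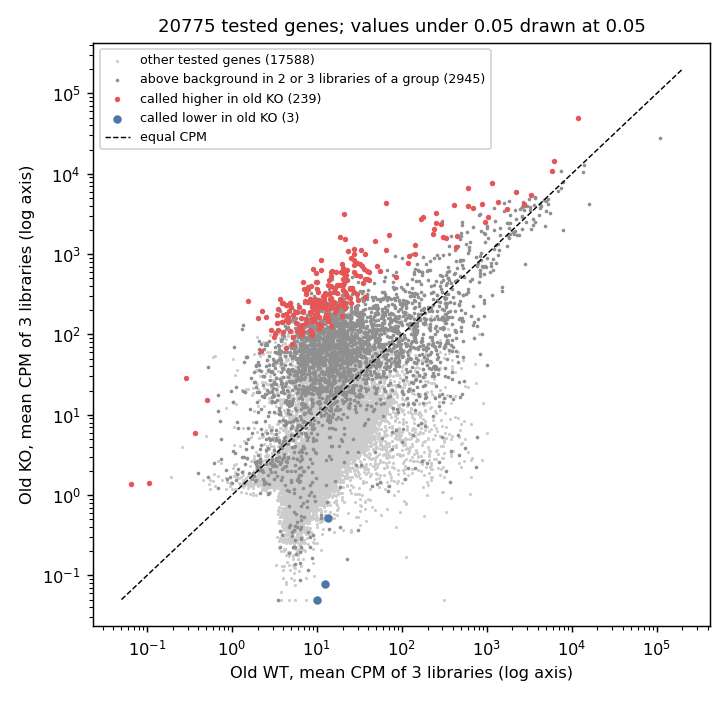
Mean CPM of the 3 old WT libraries (x axis, log) against mean CPM of the 3 old KO libraries (y axis, log) for the 20775 tested genes. The 239 genes called higher with TMM (red) lie above the line of equal CPM, and most of the 13715 genes never above background lie under it in the light grey cloud.

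The 8 genes that rose both with TMM and with total counts were Fosb, Klf4, Atf3, Sertad1, Klf6, Dnajb1, Odc1 and Tpt1, and 5 of them belong to the list of immediate early genes. Fosb, which pairs with Jun proteins in AP-1, was at 44.4, 67.4 and 84.4 CPM in old WT and 4846, 4354 and 3707 CPM in old KO. Its lowest old KO library was 43.9 times its highest old WT library, and its fold change was 7.65 ± 0.58 (SE, adjusted p = 6.7e-05). Klf4, a Krueppel-like transcription factor that restrains proliferation, was at 22.5, 13.4 and 27 CPM in old WT and 3561, 2769.7 and 3127 CPM in old KO, a fold change of 8.87 ± 0.83 (SE, adjusted p = 4.3e-04). Atf3, a stress-induced member of the ATF family, was at 8.80, 15.6 and 31.6 CPM in old WT and 1781, 1924 and 1208 CPM in old KO, a fold change of 8.11 ± 0.95 (SE, adjusted p = 0.00377). These 3 genes kept their call in all 9 runs that left out a library. Total counts gave Fosb 5.98, Klf4 7.17 and Atf3 6.39 (adjusted p = 6.9e-04, 9.3e-04 and 0.0326).

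The remaining 5 of the 8 lost their call in 1 of the 9 runs, the one without young WT library 3, where each had an adjusted p of 0.0718. Sertad1, a regulator of E2F-driven transcription, was at 24.4, 14.9 and 24.4 CPM in old WT and 1439.6, 1387 and 1761 CPM in old KO (fold change 7.80 ± 0.95, adjusted p = 0.00378). Sertad1 was above background in all 3 old WT libraries, while Klf4, Atf3, Odc1 and Klf6 were so in none. Klf6, a Krueppel-like factor, was at 10.4, 29.3 and 20.9 CPM in old WT and 762, 453 and 786 CPM in old KO (fold change 6.69 ± 0.84, adjusted p = 0.00378). Odc1, ornithine decarboxylase, which starts polyamine synthesis, was at 23.3, 15.3 and 31 CPM in old WT and 500.3, 1141 and 1631 CPM in old KO (fold change 7.26 ± 0.91, adjusted p = 0.00378). Its highest old KO library was 3.26 times the lowest, and all 3 were above every old WT library. Dnajb1, an Hsp40 co-chaperone induced by heat shock, was at 517, 298 and 407 CPM in old WT and 3558, 4566 and 4167 CPM in old KO (fold change 4.91 ± 0.60, adjusted p = 0.00378). Tpt1, the abundant translationally controlled tumour protein, was at 11108, 17352 and 7306 CPM in old WT and 55459, 56503 and 35403 CPM in old KO (fold change 3.51 ± 0.41, adjusted p = 0.00377, and 1.99 with total counts). Among the genes above background alone, 7 of the 8 were again called, with Tpt1 the exception (0.70, adjusted p = 0.166).

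**Figure D2:**
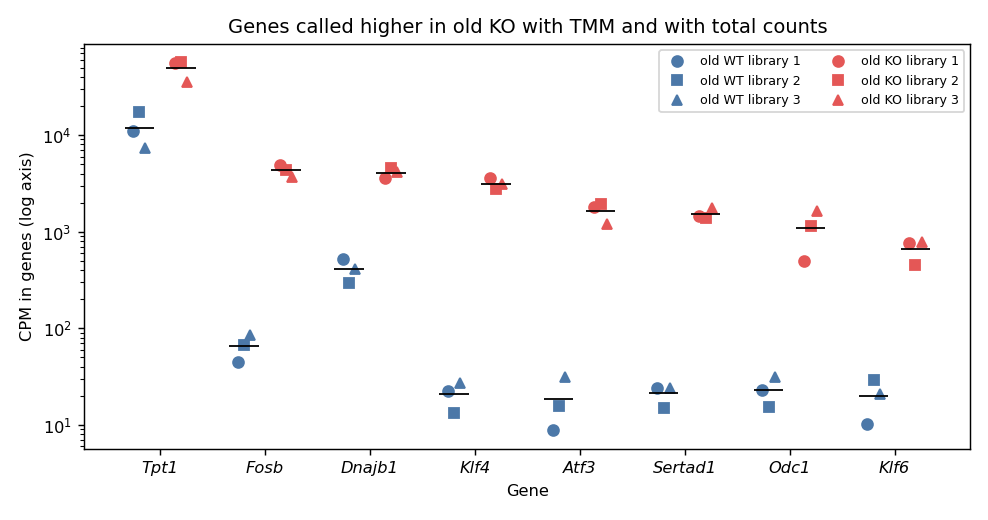
CPM of the 8 genes called higher in old KO with TMM and with total counts (y axis, log) in each old WT (blue) and old KO (red) library; symbols mark the library number and lines the group means. In every gene the 3 old KO libraries lie above the 3 old WT libraries, with Fosb at 44.4 to 84.4 against 3707 to 4846 CPM.

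The promoters of the 3 genes that kept their call in every run are shown. All of them hold the core site TGACG that CREB and ATF family factors recognise, a common site, and binding to it was not tested. The 250 bases before each RefSeq start (GRCm38.p6) are printed 5′ to 3′ on the gene's strand, with the core site in capitals on whichever strand it reads (CGTCA is its reverse complement). The regions are chr7:19310046-19310295 for Fosb, chr4:55532476-55532725 for Klf4 and chr1:191183334-191183583 for Atf3, each on the minus strand.
Fosb: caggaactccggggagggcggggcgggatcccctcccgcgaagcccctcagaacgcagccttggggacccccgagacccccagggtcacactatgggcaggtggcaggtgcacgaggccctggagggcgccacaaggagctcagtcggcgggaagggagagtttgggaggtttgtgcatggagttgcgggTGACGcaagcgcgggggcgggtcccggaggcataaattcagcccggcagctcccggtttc
Klf4: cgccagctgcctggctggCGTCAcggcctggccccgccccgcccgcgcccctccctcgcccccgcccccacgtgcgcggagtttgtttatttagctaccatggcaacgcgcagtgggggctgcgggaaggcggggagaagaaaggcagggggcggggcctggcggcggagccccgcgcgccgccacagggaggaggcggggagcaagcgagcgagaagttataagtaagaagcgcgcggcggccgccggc
Atf3: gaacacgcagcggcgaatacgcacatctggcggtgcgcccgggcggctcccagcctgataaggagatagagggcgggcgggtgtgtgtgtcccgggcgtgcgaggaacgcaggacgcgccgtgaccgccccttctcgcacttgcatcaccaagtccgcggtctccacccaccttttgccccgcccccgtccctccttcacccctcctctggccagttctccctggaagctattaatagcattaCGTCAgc
The core site, read on both strands, was present in 17.9% of 27025 RefSeq promoter windows, in 34.6% of the 1022 matched genes above background in all 3 old KO libraries, in 45.9% of the 181 matched genes that rose, and in 6 of the 8 genes above, all but Klf6 and Sertad1. For Dnajb1, which has 2 listed starts, the first was used. The full site TGACGTCA, which contains the core site, was in 1.62%, 3.42% and 4.97% of the same 3 sets and in 0 of the 8. The AP-1 site TGANTCA was in 6.87%, 4.70% and 6.63%, and the heat shock core GAANNTTC in 6.78%, 6.16% and 4.97%. The TATA box TATAAA was in 13.0%, 9.49% and 9.94%. The CArG box, CC and GG around a run of A or T, was in 1.40%, 1.37% and 3.31%. Of the 239 genes 58 had no entry in the promoter table.

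Immediate early genes were the list with the most calls. Of 45 tested members 20 rose and 0 fell with TMM, against 1.15% over all tested genes, and the list's median was 4.30 with TMM and 2.60 with total counts. Their summed level was 11716 to 12366 CPM in the old WT libraries and 58344 to 63128 CPM in the old KO libraries. Old KO lay above old WT without overlap in 29 members, against 2.96% of all tested genes. Detection above background in 2 or more libraries was reached by 43 of the 45 members for old KO and by 19 for old WT. Genes above background in all 3 old KO libraries, a set that passed through the group where it is high, were called in 15.6% of 1502 cases, with medians of 3.17 and 1.50.

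Junb, an AP-1 subunit, was at 833, 1561 and 1095 CPM in old WT and 6919, 7748 and 8169 CPM in old KO (fold change 4.30 ± 0.57, adjusted p = 0.00541). Zfp36, which binds AU-rich messenger RNAs and speeds their decay, was at 96.6, 1223 and 496 CPM in old WT and 5975, 7521 and 6157 CPM in old KO (fold change 4.98 ± 0.81, adjusted p = 0.0141). Old WT library 1 was lowest and library 2 highest for Zfp36, while the old KO libraries lay close together. Mcl1, a Bcl2-family protein that protects from apoptosis, was at 109, 10.5 and 25.5 CPM in old WT and 1486, 1356 and 1489 CPM in old KO (fold change 6.41 ± 1.02, adjusted p = 0.0137). Ier3, an immediate early response gene, was at 2.93, 6.68 and 10.7 CPM in old WT and 523, 288 and 519 CPM in old KO (fold change 7.76 ± 1.03, adjusted p = 0.00541). Fosl1, a Fos-family subunit of AP-1, had the highest fold change of the named genes, 8.99 ± 1.70 (SE, adjusted p = 0.0248). The old WT side of that value rests on few reads: it had 2, 6 and 8 counts in old WT, against 6420, 2158 and 1962 in old KO.

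Dusp1, a phosphatase that switches off MAP kinases, was at 545, 949 and 541 CPM in old WT and 5748, 3018 and 2599.7 CPM in old KO (fold change 4.0 ± 0.67, adjusted p = 0.0159). Klf2, a Krueppel-like factor tied to quiescence, was at 324, 184 and 198 CPM in old WT and 1748, 2233 and 1373 CPM in old KO (fold change 4.42 ± 0.66, adjusted p = 0.0109). Nr4a1, an orphan nuclear receptor that restrains stem cell division, was at 542, 141 and 27.8 CPM in old WT and 1773, 2034 and 2427 CPM in old KO (fold change 4.59 ± 1.0, adjusted p = 0.0449). Gadd45b, Maff, Klf10, Ier5 and Rhob were also called, with fold changes of 6.41, 7.11, 6.48, 5.61 and 3.65. Not all of the list was called. Egr1 was at 455, 85.8 and 4224 CPM in old WT and 4432, 4253 and 4209.9 CPM in old KO, with old WT library 3 inside the old KO range (adjusted p = 0.114). Fos was at 2585, 1497 and 747 CPM in old WT and 2827, 4680.1 and 2708 CPM in old KO (adjusted p = 0.0674) and Jun at 1398, 39.7 and 349 CPM in old WT and 1105, 897 and 1097 CPM in old KO (adjusted p = 0.275).

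Some chaperones rose as well. The heat shock list had 26.9% called, against 1.15% of all tested genes and 15.6% of those above background in all 3 old KO libraries. Of its 26 tested members 7 rose and 0 fell (medians 3.23 with TMM and 1.52 with total counts). Besides Dnajb1 these were Dnaja1, another Hsp40 co-chaperone (5.74), Cct2, a subunit of the cytosolic chaperonin (5.86), the endoplasmic reticulum chaperones Hsp90b1 (5.80) and Hspa5 (4.58), the cytosolic Hsp90ab1 (3.21, and -0.31 after background was subtracted) and Hspa8. Hspa8, the constitutive Hsc70 chaperone, was at 2295, 844 and 964 CPM in old WT and 5050.1, 3621 and 4661 CPM in old KO, and its fold change of 3.25 ± 0.63 (SE, adjusted p = 0.0272) became -0.020 after background was subtracted. Hspa1a, the heat-inducible Hsp70, was at 5.08, 573 and 261 CPM in old WT and 223, 567 and 404 CPM in old KO, with overlapping ranges (adjusted p = 0.46). Hsp90aa1, the inducible Hsp90, was at 207, 3349 and 2104 CPM in old WT and 2677, 2997 and 3604 CPM in old KO (adjusted p = 0.206).

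Of 39 tested members of the unfolded protein and integrated stress response list 5 rose and 0 fell (medians 2.71 and 1.03). The called share was 12.8%, against 1.15% of all tested genes and 15.6% of those above background in all 3 old KO libraries. Herpud1, which helps to degrade proteins from the endoplasmic reticulum, was at 6.84, 4.77 and 15.4 CPM in old WT and 744, 148 and 1038 CPM in old KO (fold change 8.0 ± 1.18, adjusted p = 0.0109). Ddit3, the transcription factor CHOP, was at 1.76, 1.91 and 4.93 CPM in old WT and 141, 107 and 93.5 CPM in old KO (fold change 6.98 ± 1.15, adjusted p = 0.0151). Atf4, the translation-controlled factor of the integrated stress response, was at 50.8, 445 and 29.3 CPM in old WT and 3669, 2342 and 2689 CPM in old KO (fold change 5.51 ± 1.06, adjusted p = 0.0267). Old WT library 2 stood above the other 2 old WT libraries for Atf4, and all 3 were under the old KO libraries. Manf, a secreted factor of the same response, rose by a fold change of 6.49, and Hspa5 is shared with the chaperone list.

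Among genes of quiescence and growth arrest 7 of 29 tested members rose and 0 fell (medians 3.73 and 2.01). These 24.1% stand beside 1.15% of all tested genes and 15.6% of those above background in all 3 old KO libraries. Klf2, Klf4, Klf6 and Nr4a1 are shared with the immediate early list. Btg1, an antiproliferative factor, was at 5.87, 20 and 11.6 CPM in old WT and 331, 148 and 489.8 CPM in old KO (fold change 6.38 ± 1.16, adjusted p = 0.0212). Bbc3, the proapoptotic p53 target PUMA, was at 6.45, 8.27 and 13.6 CPM in old WT and 134, 162 and 215 CPM in old KO (fold change 5.87 ± 1.16, adjusted p = 0.0291). Ccnd3, cyclin D3, was at 11.3, 9.54 and 22.6 CPM in old WT and 149.8, 129 and 104 CPM in old KO (fold change 4.79 ± 0.99, adjusted p = 0.0356) and promotes the cell cycle rather than arresting it. Cell cycle genes made up further lists: of 37 G1/S and replication genes 1 rose, and of 37 G2 and mitosis genes 0 by edgeR. In the G2 and mitosis list 5 had an unadjusted p under 0.05, 3 were called by DESeq2 and 1 by limma-voom. Of these lists, 17 and 27 members were above background in none of the 6 libraries, as were 66.0% of all tested genes. The one that rose was Pcna, the sliding clamp of DNA polymerases, at 3.32, 8.27 and 21.8 CPM in old WT and 494, 868 and 527 CPM in old KO (fold change 7.52 ± 1.04, adjusted p = 0.00779).

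Genes of the sorted phenotype were detected more often in old KO than in old WT, as tested genes were in general. Of all tested genes 3066 were above background in 2 or more old KO libraries and 635 in 2 or more old WT libraries. Kit, the surface receptor used in the sort, was at 28.7, 31.5 and 74.2 CPM in old WT and 97.2, 412 and 134 CPM in old KO and above background in 0 old WT and 3 old KO libraries (adjusted p = 0.0596). Slamf1, which encodes CD150, was above background in 1 and 3 libraries, Procr in 1 and 3, Hlf in 1 and 3, Meis1 in 0 and 3, Mecom in 0 and 2 and Fgd5 in 0 and 2. Ly6a, which encodes Sca1, was above background in 0 old WT libraries and in old KO library 3 alone. Cd48 and the lineage genes Cd3e, Itgam and Ly6g were above background in none of the 6 libraries.

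Stem cell identity genes had a median of 2.31 with TMM, 0.98 with total counts and -0.34 in the fit of genes above background. The called share was 4.88%, against 1.15% of all tested genes and 7.76% of those above background in 2 or more old KO libraries. Of the list's 41 tested members 2 rose and 0 fell. One of them, Tal1, a transcription factor needed to form blood stem cells, was at 8.41, 11.4 and 11.6 CPM in old WT and 115, 111 and 138 CPM in old KO (fold change 5.16 ± 1.15, adjusted p = 0.0469). Other identity genes moved between single libraries. Hlf, a transcription factor of long-term stem cells, was at 28.2, 14.6 and 1372 CPM in old WT and 386, 95.4 and 221 CPM in old KO: old WT library 3 alone was above every old KO library. Procr, which encodes the surface marker EPCR, was at 446, 3.82 and 9.57 CPM in old WT and 35.3, 415 and 84.2 CPM in old KO, with old WT library 1 and old KO library 2 high.

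Megakaryocyte markers, a lineage whose genes stem cells share in part, had 3 of 19 tested members called (medians 3.19 and 1.65). Their 15.8% stand beside 1.15% of all tested genes and 15.6% of those above background in all 3 old KO libraries. F2r, the thrombin receptor PAR1, was at 8.99, 5.09 and 9.28 CPM in old WT and 663, 191 and 239 CPM in old KO (fold change 7.13 ± 1.10, adjusted p = 0.0114). Rgs18, a regulator of G protein signalling in platelets, was at 3.91, 0.318 and 2.61 CPM in old WT and 437, 129 and 15.3 CPM in old KO (fold change 7.85 ± 1.65, adjusted p = 0.0383). The summed level of this list was 435 to 1337 CPM in old WT and 1643 to 3716 CPM in old KO, and Pf4, a defining granule protein, was at 0, 1.27 and 2.03 CPM in old WT and 62.6, 2.13 and 1.20 CPM in old KO. None of 18 lymphoid, 18 myeloid, 12 erythroid, 8 mast cell and basophil or 19 stroma and endothelial markers was called by edgeR, while 10 had an unadjusted p under 0.05 on the higher side and 1 on the lower. DESeq2 called 5 of them higher and 2 lower, and limma-voom 1 higher. Summed lymphoid markers were at 201 to 267 CPM in old WT and 28.6 to 201 CPM in old KO, and myeloid markers at 842 to 1298 and 1175 to 2323 CPM. Summed erythroid markers were at 217 to 1021 and 643 to 1528 CPM, mast cell and basophil markers at 104 to 1464 and 2222 to 3617 CPM, and stroma and endothelial markers at 439 to 842 and 142 to 653 CPM. No marker of these lists was at 0 counts in all 6 libraries, and the part of these markers in the other results was not tested.

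A list of genes often reported to rise in old stem cells had 4 of 39 tested members called (medians 1.98 and 0.52). All 4 were higher in old KO, as were 239 of all 242 calls. The called share was 10.3%, against 1.15% of all tested genes. Among genes above background in 2 or more old KO libraries it was 7.76%, and in all 3 15.6%, so the list does not stand out. Clu, clusterin, was at 15.1, 3.50 and 10.7 CPM in old WT and 153, 396 and 780.5 CPM in old KO (fold change 7.21 ± 1.29, adjusted p = 0.0212). Vmp1, a protein of autophagosome formation, was at 14.5, 8.90 and 24.1 CPM in old WT and 322, 415 and 263 CPM in old KO (fold change 6.01 ± 0.97, adjusted p = 0.0141). Itga6, integrin alpha 6, was at 14.1, 28 and 35.4 CPM in old WT and 384, 338 and 398 CPM in old KO (fold change 5.52 ± 1.01, adjusted p = 0.0214), and Zfp36 completes the 4. Vwf, the von Willebrand factor, was at 30.5, 38.5 and 91.4 CPM in old WT and 53.1, 188 and 9.52 CPM in old KO, with overlapping ranges.

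Sphk2 itself was close to background in every old library. The gene (ENSMUSG00000057342) spans bases 45709467 to 45718002 of chromosome 7 in GRCm38. Its reads numbered 20, 1 and 35 for old WT and 12, 23 and 8 for old KO, and it was above background in none of the 6. Its fold change was -0.47 ± 1.30 (SE, adjusted p = 0.902), so its counts did not check the genotype labels. Sphk1, the other sphingosine kinase, was above background in none of the 6 libraries either.

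Genes around sphingosine 1-phosphate numbered 17 among those tested. By edgeR 0 were called, with 3 at an unadjusted p under 0.05 (DESeq2 called 2 higher and limma-voom 0). Of the 17, 9 were above background in none of the 6 libraries, as were 66.0% of all tested genes. The median was 0.00 with TMM and -1.59 with total counts. Spns2, an exporter of sphingosine 1-phosphate, was at 311, 12.7 and 511 CPM in old WT and 397, 738 and 512 CPM in old KO. Old WT library 2 lay under every other library, and old WT library 3 lay inside the old KO range (adjusted p = 0.232). S1pr4, a receptor found on blood cells, was at 3.32, 2.86 and 655 CPM in old WT and 61.6, 1.86 and 72.7 CPM in old KO, highest in old WT library 3 by far. S1pr1, the receptor that guides blood cell egress, was at 1.56, 1.59 and 5.51 CPM in old WT and 6.02, 58.8 and 5.30 CPM in old KO, highest in old KO library 2 by far.

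Enzymes of ceramide and sphingolipid metabolism had a median of -0.04 with TMM and -1.53 with total counts. Of 39 tested members 1 was called (2.56%, against 1.15% of all tested genes). It was Ormdl3, an inhibitor of serine palmitoyltransferase, the entry enzyme of the pathway, at 4.30, 6.68 and 2.03 CPM in old WT and 248, 134 and 77.7 CPM in old KO (fold change 6.57 ± 1.29, adjusted p = 0.0285). Sptssa, a small subunit of the same enzyme, was at 5.08, 11.1 and 2.90 CPM in old WT and 182, 49.2 and 159 CPM in old KO, apart in range but not called (adjusted p = 0.0827). Cers2, a ceramide synthase for very long chains, was at 15.4, 12.4 and 8.41 CPM in old WT and 29.9, 8.24 and 719.9 CPM in old KO, carried by old KO library 3 alone. Hexa, a lysosomal hexosaminidase, was at 941, 17.2 and 18.9 CPM in old WT and 5.57, 7.98 and 284 CPM in old KO, carried by old WT library 1 and old KO library 3.

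Iron storage genes rose with TMM. Fth1, the heavy chain of ferritin, was at 775, 1136 and 715 CPM in old WT and 4481, 4091 and 4169 CPM in old KO (fold change 3.83 ± 0.59, adjusted p = 0.0114). Ftl1, its light chain, was at 169, 222 and 32.5 CPM in old WT and 828, 1067 and 1113 CPM in old KO (fold change 4.30 ± 0.95, adjusted p = 0.0451). In both genes all old KO libraries lay above all old WT libraries, and Ftl1 has processed copies elsewhere in the genome that can share its reads. Neither was called with total counts, among genes above background or after background was subtracted. Fth1 was at 2.22 with total counts and 0.62 after subtraction (edgeR adjusted p = 0.104 and 0.317). Ftl1 was at 2.78 and 1.27 (edgeR adjusted p = 0.104 and 0.352). Pcbp2, an RNA-binding protein that also delivers iron, was at 11.9, 20.7 and 26.4 CPM in old WT and 123, 210.1 and 177 CPM in old KO (fold change 4.74 ± 1.01, adjusted p = 0.0403). These were 3 of 28 tested iron-handling genes (medians 0.58 and -1.18). The called share was 10.7%, against 1.15% of all tested genes and 7.76% of those above background in 2 or more old KO libraries. Tfrc, the transferrin receptor, was at 18.2, 21.3 and 31.9 CPM in old WT and 6.02, 77.8 and 54.6 CPM in old KO, with overlapping ranges.

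Of genes that protect from ferroptosis 2 of 36 tested rose, both ferritin chains (medians 1.93 and 0.13). Their 5.56% stand beside 1.15% of all tested genes and 7.76% of those above background in 2 or more old KO libraries. Gpx4, the glutathione peroxidase that reduces lipid peroxides, was at 1297, 20.3 and 20.9 CPM in old WT and 829.6, 597 and 559 CPM in old KO. Old WT library 1 was above every old KO library while old WT libraries 2 and 3 were far under them, and the gene was not called (adjusted p = 0.501). Of genes that promote ferroptosis 1 of 39 tested rose (2.56%, medians 0.11 and -1.51). This was Sat1, which acetylates polyamines, at 8.02, 8.90 and 23.8 CPM in old WT and 258, 806 and 159 CPM in old KO (fold change 6.45 ± 1.16, adjusted p = 0.0212). Together with Odc1 it made 2 of 11 polyamine genes (18.2%, medians 4.20 and 2.51). Vdac3, a mitochondrial outer membrane channel, was at 18.4, 23.2 and 1386 CPM in old WT and 5.94, 32.1 and 38.7 CPM in old KO, its high value resting on old WT library 3. Among 28 antioxidant genes 1 rose, Prdx1, a peroxiredoxin, at 18.4, 5.09 and 22.9 CPM in old WT and 343, 311 and 98 CPM in old KO (fold change 5.56 ± 1.20, adjusted p = 0.0431).

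Part of the translation machinery rose with TMM, and the size depended on scale. Of 35 translation factors 7 rose and 0 fell (20%, medians 3.08 and 1.34). For the ribosomal protein genes below the called share was 6.25%. Over all tested genes it was 1.15%, and over those above background in 2 or more old KO libraries 7.76%. One of the 7, the elongation factor Eef1a1, was at 2.59 with TMM and -0.86 after background was subtracted. Beside Tpt1 they included Eif4a2, an RNA helicase of initiation, at 11.9, 43.9 and 25.8 CPM in old WT and 185, 969.8 and 1038 CPM in old KO (fold change 6.37 ± 1.05, adjusted p = 0.0151), and Eif1, which helps to select the start codon, at 993, 732 and 69.9 CPM in old WT and 3978, 3911 and 4018 CPM in old KO (fold change 4.17 ± 0.91, adjusted p = 0.0444). Pabpc1, the poly(A)-binding protein, was at 208, 773 and 339.6 CPM in old WT and 2118, 1279 and 1672 CPM in old KO (fold change 3.51 ± 0.72, adjusted p = 0.0354). Of 80 ribosomal protein genes 5 were called, Rps2, Rpl10, Rpl5, Rplp0 and Rpl22l1, but the family's median was 1.70 with TMM, 0.10 with total counts and -1.20 in the fit of genes above background, where 13 of its members were called lower. Rplp0, a stalk protein, was at 3836, 1936 and 788 CPM in old WT and 6686, 5056 and 6249 CPM in old KO and its fold change of 2.95 became -0.21 after background was subtracted. Rpl5 was at 2126, 805 and 2278 CPM in old WT and 3362, 3310.4 and 4361 CPM in old KO, and its fold change of 2.75 became -0.72. After the same subtraction Rpl10 was at -0.98 and Rps2 at -1.09.

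Among mitochondrial and energy genes calls depended on the tool. Of 12 tested genes of the mitochondrial genome 1 was called, mt-Co1, a cytochrome oxidase subunit, at 8461, 7483 and 2514 CPM in old WT and 12268, 13458 and 17746 CPM in old KO, and its fold change of 2.76 became -0.41 after background was subtracted (list median 1.30 with TMM and -0.32 with total counts). Another subunit of the same oxidase, mt-Co3, was at 58.3, 44.2 and 62.1 CPM in old WT and 20.8, 33.8 and 21.2 CPM in old KO, the old KO range lying under the old WT range. Of 49 nuclear genes of oxidative phosphorylation 3 rose (medians 2.80 and 1.32): Atp5c1 (5.77) and Atp5h (5.32) of the ATP synthase, and Cyc1 of complex III (7.68). Cyc1 was at 2.35, 2.86 and 2.32 CPM in old WT and 305, 4.25 and 187 CPM in old KO, so old KO library 2 stayed near the old WT level. Ldha, lactate dehydrogenase A, was the called one of 25 glycolysis genes, at 17.8, 69.9 and 23.8 CPM in old WT and 236, 340.3 and 309 CPM in old KO (fold change 4.52 ± 0.93, adjusted p = 0.0354). Gapdh was at 1825, 1932 and 1541 CPM in old WT and 2782, 2413 and 2106 CPM in old KO (adjusted p = 0.123). The called shares, 8.33% of the mitochondrial genome, 6.12% of oxidative phosphorylation and 4.0% of glycolysis, stand beside 1.15% over all tested genes. Among genes above background in 2 or more old KO libraries the share was 7.76%, and among those above it in all 6 libraries 9.56%. Beside these shares the 3 lists do not stand out. DESeq2 called 3, 23 and 11 members of these lists higher, and 1762 over all 20775 tested genes. No gene of 23 in fatty acid oxidation was called by edgeR (6 at an unadjusted p under 0.05, 4 called by DESeq2 and 1 by limma-voom), and none of 36 in the proteasome (13, 10 and 0).

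Cytoskeleton and adhesion genes had 7 of 35 tested members called (medians 2.99 and 1.35). These 20% stand beside 1.15% of all tested genes and 15.6% of those above background in all 3 old KO libraries. Zyx, zyxin of focal adhesions, was at 30.3, 30.5 and 22 CPM in old WT and 897, 789 and 820.1 CPM in old KO (fold change 6.47 ± 1.0, adjusted p = 0.0114) and was also called among the genes above background. Actg1, gamma actin, was at 335, 383 and 38.3 CPM in old WT and 1421, 2754 and 3138 CPM in old KO (fold change 4.76 ± 0.92, adjusted p = 0.0269). Actb, beta actin, was at 791, 1215 and 868 CPM in old WT and 1846, 2752 and 2974 CPM in old KO, and its fold change of 2.99 became -0.28 after background was subtracted. Tpm3, a tropomyosin outside this list, was at 24.4, 21.3 and 30.5 CPM in old WT and 774, 1154 and 779.5 CPM in old KO (fold change 6.73 ± 0.89, adjusted p = 0.00541).

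Smaller lists held 1 to 4 called genes. Their counts stand beside called shares of 1.15% over all tested genes and 7.76% over those above background in 2 or more old KO libraries. The share was 11.4% for autophagy and lysosome genes and 12.5% for histone and chromatin genes. Of 35 autophagy and lysosome genes 4 rose: the Atg8 relatives Map1lc3b (5.53), Map1lc3a (6.39) and Gabarapl2 (6.42), and the protease Ctsd (4.87). Of 32 histone and chromatin genes 4 rose, among them the replacement histone gene H3f3b, at 543, 137 and 73.1 CPM in old WT and 3032, 3288 and 3403 CPM in old KO (fold change 5.16 ± 0.81, adjusted p = 0.012), and Kdm6b, a histone H3 demethylase (6.26). Among 31 interferon and class I genes H2-T23 (5.46) and Ifitm2 (6.05) rose, while B2m was at 1917, 3489 and 96.6 CPM in old WT and 3409, 4569 and 5889 CPM in old KO (adjusted p = 0.178). Icam1, an adhesion molecule, was the called one of 25 NF-kappaB targets (6.15), and Srebf2, the regulator of cholesterol synthesis, of 24 genes of that pathway (5.44). Nfkbia, the NF-kappaB inhibitor, was at 23.1, 633 and 1408 CPM in old WT and 1912, 2054 and 2572 CPM in old KO, apart in range but not called (adjusted p = 0.139). Of 17 Bcl2-family genes Mcl1, which opposes apoptosis, and Bbc3, which promotes it, rose. Olfactory receptors, the background genes, had 0 edgeR calls of 749 (38 at an unadjusted p under 0.05, 25 called lower by DESeq2 and 0 by limma-voom) and medians of -0.74 and -2.38.

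**Figure D3:**
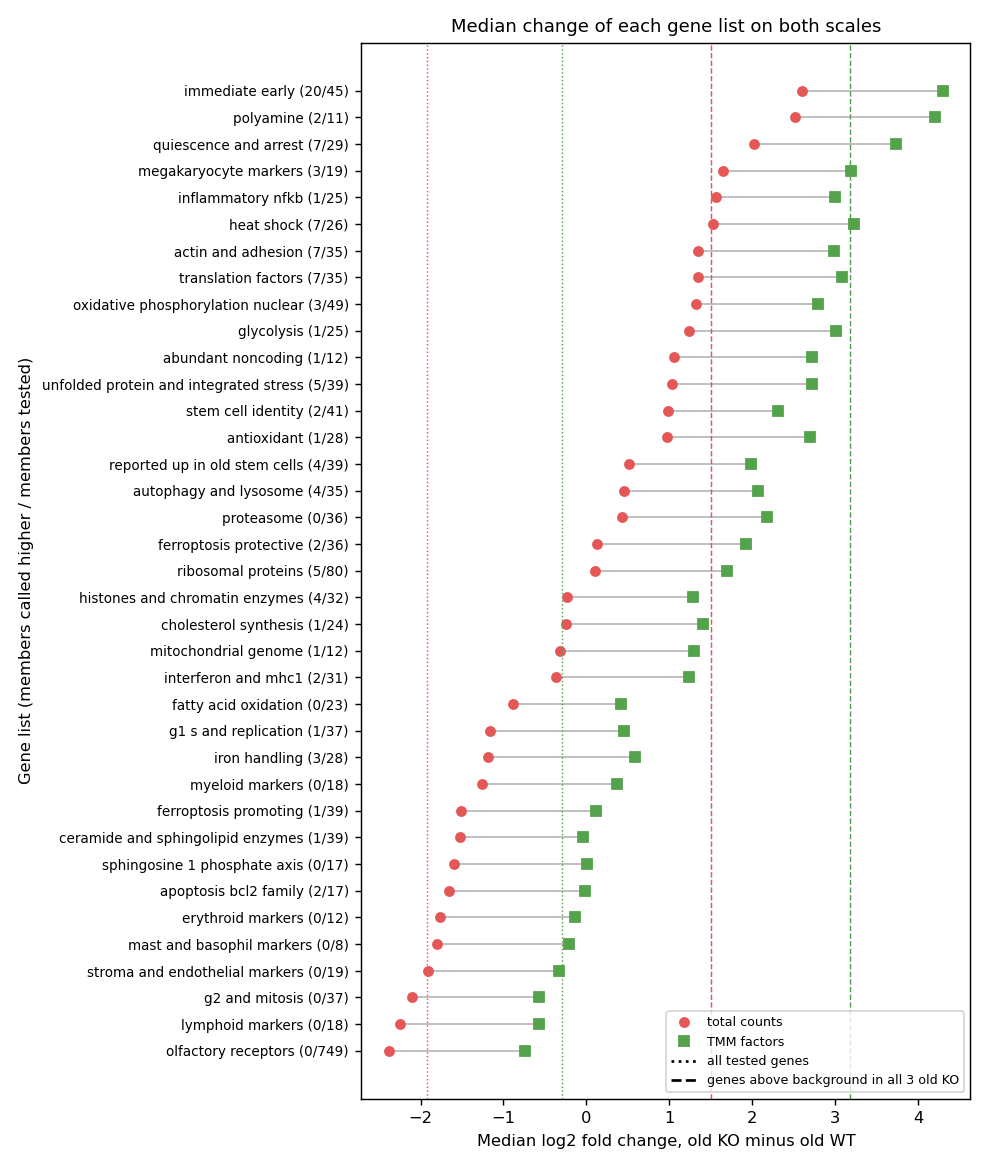
Median log2 fold change of each gene list, old KO minus old WT, with TMM (green squares) and total counts (red circles); numbers in brackets are members called higher over members tested, and dotted and dashed lines mark all tested genes and genes above background in all 3 old KO libraries. Immediate early genes lie furthest right at 4.30 and 2.60, and olfactory receptors furthest left at -0.74 and -2.38.

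Genes detected in both groups were also compared, though some of them had few reads in old WT. In the 293 genes above background in all 6 libraries the old KO range of CPM lay above the old WT range in 53 and under it in 51, against 2.96% and 52.2% of all tested genes. The 53 included 51 protein-coding genes, with 11 immediate early, 3 heat shock and 11 ribosomal protein genes. The 51 included 28 protein-coding genes, 30 predicted genes with a Gm number, 6 genes of the mitochondrial genome, 3 ribosomal protein genes and no immediate early or heat shock gene. On the total-count scale the 15 immediate early genes among the 293 had a median of 2.14 and 14 were positive, the 75 ribosomal protein genes -0.03 and the 63 predicted genes -0.86, with 53 negative. The highest ratios of mean CPM among the 293 were those of Sertad1, Rgcc and Mif. These rest on low old WT levels: Sertad1 had 125, 47 and 84 counts there, Rgcc 849, 54 and 90, and Mif 70, 35 and 79. Rgcc, a regulator of the cell cycle, was at 166, 17.2 and 26.1 CPM in old WT and 1140.3, 2696 and 1403 CPM in old KO (fold change 6.05 ± 1.09, adjusted p = 0.0212). Mif, a cytokine with processed copies, was at 13.7, 11.1 and 22.9 CPM in old WT and 149, 328 and 286 CPM in old KO (fold change 5.65 ± 0.93, adjusted p = 0.0151). Adgrg1, the adhesion receptor GPR56, was at 70.4, 164 and 197 CPM in old WT and 1486, 1234 and 1184 CPM in old KO (fold change 4.82 ± 0.68, adjusted p = 0.00793).

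**Figure D4:**
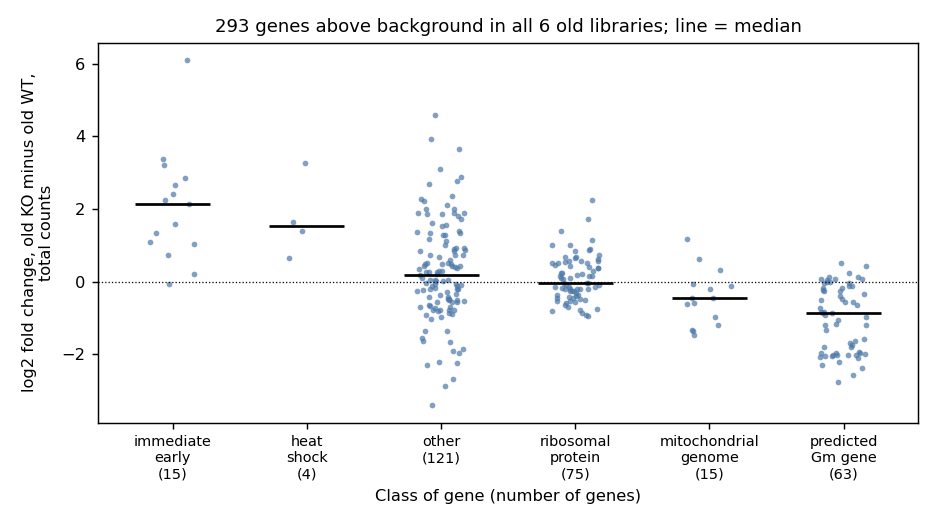
Total-count log2 fold change, old KO minus old WT (y axis), of the 293 genes above background in all 6 old libraries, by class (x axis, number of genes in brackets); each point is a gene and lines are medians. Immediate early genes centre on 2.14, ribosomal protein genes on -0.03 and predicted Gm genes on -0.86.

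A group of 7 predicted genes took a larger share of the counts in old WT. Gm10800 alone was at 81794, 111256 and 133835 CPM in old WT and 29201, 34159 and 20632 CPM in old KO, and with Gm10801, Gm21738, Gm26870, Gm10722, Gm10717 and Gm10718 it took 10.5%, 14.1% and 17.2% of the gene counts of old WT libraries, against 3.73%, 4.37% and 2.65% for old KO. In the young WT libraries the 7 genes took 0.0651% to 0.228%. The share of reads outside genes, 80.8% to 87.7% against 45.0% to 61.9%, was higher in the same libraries, and its part in this result was not tested. Near-identical copies of these genes can share their reads. With TMM Gm10800 was not called (-0.39 ± 0.35, adjusted p = 0.652). In the fit of genes above background it was called lower (-3.33, adjusted p = 0.00249), a value relative to the other genes of that fit. The 3 genes that fell with TMM, named after their values were seen, had few reads in old KO. Cyp2a22, a cytochrome P450, had 18, 33 and 81 counts in old WT, against 0, 2 and 1 in old KO. Gm9271, a pseudogene, had 27, 31 and 51 against 0, 1 and 0, and 4930471E19Rik, a long noncoding RNA, 55, 53 and 44 against 11, 6 and 4.

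Genes detected only in old WT were few and uneven. Of the tested genes 74 were above background in at least 2 old WT and 0 old KO libraries, against 1843 the other way round. Capn8, a calpain protease, was at 502, 9.22 and 1160.3 CPM in old WT and 2.38, 6.47 and 2.74 CPM in old KO. Anpep, the surface peptidase CD13, was at 12.3, 549 and 849 CPM in old WT and 4.98, 3.46 and 1.03 CPM in old KO. In each of them 1 old WT library lay far under the other 2, and neither was called with TMM (adjusted p = 0.132 and 0.138). In the fit of genes above background both fell, Capn8 with a fold change of -8.60 (adjusted p = 0.0422) and Anpep with -8.57 (adjusted p = 0.0489). With background subtracted their adjusted p-values were 0.0546 and 0.0676. Cks1b, a cell cycle subunit, was at 4.11, 868 and 4.93 CPM in old WT and 1.26, 1.60 and 0.456 CPM in old KO, the whole signal coming from old WT library 2.

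Detection was patchy within both groups. Of 2393 tested genes above background in any old WT library 73.5% were so in a single library and 12.5% in all 3, and of 6320 in any old KO library 51.5% and 23.8%. Genes above background in 1 library could be strong there: 1044 such genes reached 100 CPM in old WT and 879 in old KO. Across genes above background in all 3 libraries of a group the highest library exceeded the lowest by a median ratio of 2.49 in old WT (300 genes) and 2.97 in old KO (1502 genes). Over the 293 genes above background in all 6 the median ratio was 2.49 in old WT and 1.55 in old KO. Across 3183 genes Pearson's r of log2 CPM was 0.56 to 0.59 between old WT libraries, 0.48 to 0.59 between old KO libraries and 0.44 to 0.50 between groups, as a description in which genes are not independent.

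**Figure D5:**
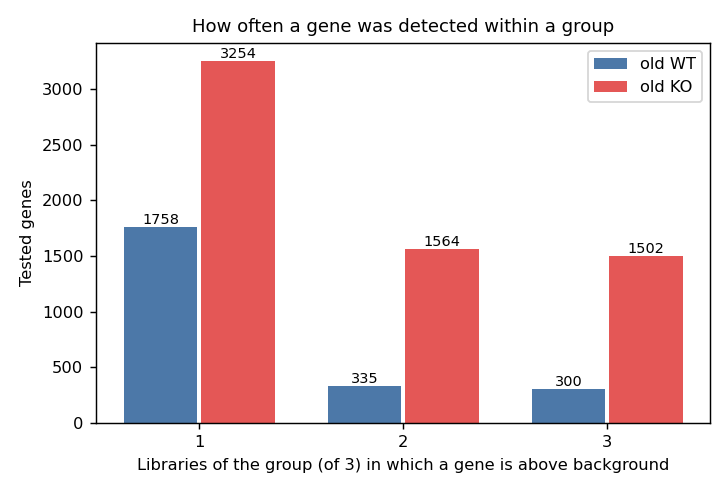
Tested genes above background in 1, 2 or 3 libraries of a group (x axis) by their number (y axis) in old WT (blue) and old KO (red). In old WT 1758 of the detected genes appear in a single library and 300 in all 3, and in old KO 3254 and 1502.

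The 239 genes that rose shared features that the test did not use. Protein-coding genes made up 97.5% of them, 78.6% of all tested genes and 85.4% of the 1502 genes above background in all 3 old KO libraries. Single-exon genes made up 3.35%, 10.7% and 14.9% of the same sets. On chromosome 15 22 of 687 tested genes rose (3.20%), and on chromosome 16 2 of 558 (0.358%), the highest and lowest shares among the numbered chromosomes. All 239 had a mean CPM in young WT above every old WT library, though the call itself favours genes low in old WT. Shares over all tested genes are not given for this count or for those that follow, so they do not mark out the 239. Ranges of old KO and young WT overlapped for 176, while 45 were higher and 18 lower in old KO than in young WT without overlap, a description, since the young WT libraries share the fit. Klf4 was at 3561, 2769.7 and 3127 CPM in old KO and at 813, 1063 and 936 CPM in young WT, while Fosb was at 3828, 4323 and 5657 CPM in young WT, a range that overlaps its old KO levels.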

How the data were processed

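Raw read counts of each gene in 9 libraries were deposited by the authors as a single table. Tools listed in the submitters' processing notes are HTSeq 0.10.0, STAR 2.6.1d, edgeR 3.24.3 and Trim Galore 0.6.2, with the genome mm10. The annotation and the strand setting are not given in the sources, so reads of antisense partners or near-identical copies may be split or merged. The 5 lines that name no gene stayed out of library sizes and tests; the line of reads outside genes held 80.8% to 87.7% of old WT counts and 45.0% to 61.9% of old KO counts.

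Counts were tested with edgeR 4.0.16 in R 4.3.3: glmQLFit on the 9 libraries, 1 mean for each group, TMM factors, at least 20 counts in 2 libraries of either old group, and Benjamini-Hochberg adjustment at 0.05 over 20775 genes. CPM used counts in genes. Coordinates and exon lengths came from GENCODE M21 (52403 of 52550 identifiers matched) and promoters from RefSeq (GRCm38.p6, 27025 windows). Background was the read density in exons of 1134 olfactory receptor genes without the densest 1% of them. Detection and the share of reads outside genes were compared by exact permutation tests, two-sided.

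Named genes were Sphk2, the 12 largest called changes each way with separate ranges, up to 3 called and the 2 most abundant members of each of 37 lists, and the extremes of genes detected in all 6 libraries or only in old WT; the text prints a subset, and adds list members picked with their values in view. Some members of these lists are not reported here. The comparison, the lists and the tests were chosen with earlier results of these data known. Alternatives were other scaling factors, filters, thresholds, DESeq2 1.42.0, limma-voom (limma 3.58.1), background subtraction, a fit with a replicate block, and fits that omit 1 library each. On simulated counts at a dispersion of 0.2 the test recovered 37.3% of 4-fold and 100% of 16-fold and 64-fold changes over 20775 genes, with 7 false calls; at the dispersions fitted to these libraries it recovered 0% of each.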

Additional observations from a re-analysis of the deposited data

How the results depend on the processing

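The 242 calls with TMM, 239 higher and 3 lower, moved with most choices. Total counts gave 8 calls (8 higher, 0 lower), upper-quartile factors 121 (121 and 0), relative log expression factors 91 (90 and 1), and factors from genes above background in both groups 6 (5 and 1). DESeq2 gave 2274 (1762 and 512) and limma-voom 393 (390 higher). The 6 old libraries alone gave 0 (0 higher and 0 lower). With filterByExpr there were 149 (149 and 0), and with no filter 14 lower calls beside 257 higher. Background subtraction gave 63 (23 and 40), and testing only genes above background 82 (20 and 62). Adjusted p under 0.01 gave 14 (14 and 0), and under 0.1 482 (473 and 9). Of 2 alternatives chosen after seeing the data, genes above background only with total counts gave 39 lower calls beside 245 higher, and the 6 old libraries alone with total counts 8854 (423 and 8431). Leaving out 1 library at a time gave 3 to 261 calls, 3 to 261 higher and 0 to 1 lower.

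The replicate numbers did not pair the libraries (correlations of same-numbered deviations 0.06, -0.00 and -0.02); with the replicate number as a block there were 49 calls (49 higher and 0 lower), and all 49 were among the 242. Sphk2 changed sign with the replicate block (0.35), and left-out libraries gave -1.08 to 0.062, without a call. After background subtraction 10 of the 239 genes changed sign: Hspa8 (-0.020), Actb (-0.28), Rplp0 (-0.21), Rpl5 (-0.72), mt-Co1 (-0.41), Hsp90ab1 (-0.31), Hnrnpa1 (-0.22), Eef1a1 (-0.86), Rpl10 (-0.98) and Rps2 (-1.09). In the fit of genes above background 5 did: Rpl5 (-0.33), mt-Co1 (-0.13), Eef1a1 (-0.48), Rpl10 (-0.66) and Rps2 (-0.75). The cause was not tested. Of 79 called genes followed by name, 78 were called by DESeq2, 76 by limma-voom, 49 with upper-quartile factors, 7 with total counts and 0 in the 6 old libraries alone. The differences in genes above background and in reads outside genes moved by less than the old KO SD (757 genes and 8.61 points) under every alternative run for them, though in part by more than the old WT SD (252 genes and 3.62 points), from 2094 to 2774 genes and from -32.8 to -24.4 percentage points without single libraries. Old WT libraries held 3145167 to 5115003 counts in genes, so genes under 20 counts or near background could not be compared.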

Other observations

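Further genes came from the 12 largest called rises, a set picked for separate ranges, so their lack of overlap is no result. Dctn3, a dynactin subunit, was at 1.76, 2.23 and 2.03 CPM in old WT and 67.7, 94.8 and 315 CPM in old KO (fold change 8.05 ± 1.51, adjusted p = 0.0247). Mrfap1 was at 1.17, 4.45 and 5.51 CPM in old WT and 625, 83.1 and 121 CPM in old KO (fold change 7.84 ± 1.33, adjusted p = 0.017), with old KO library 1 above the other 2. Phlda1, a stimulus-induced pleckstrin-homology protein, was at 18.8, 5.72 and 9.28 CPM in old WT and 1057, 682 and 765 CPM in old KO (fold change 7.75 ± 1.22, adjusted p = 0.0122), and was also called among genes above background. Smim3, a small membrane protein, was at 1.56, 3.18 and 7.25 CPM in old WT and 300.1, 49.7 and 392 CPM in old KO (fold change 7.80 ± 1.61, adjusted p = 0.0354). Their old KO libraries differed from each other. Of abundant noncoding RNAs 1 of 12 was called, Snhg12, a small nucleolar RNA host gene, at 1.56, 10.5 and 9.86 CPM in old WT and 473, 157 and 151 CPM in old KO (fold change 6.76 ± 1.21, adjusted p = 0.0212). Gas5, another such host gene, was at 806, 9.54 and 802 CPM in old WT and 391, 401 and 767 CPM in old KO, with overlapping ranges.

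Olfactory receptor genes set the background, and a few of them were high in single old WT libraries. Olfr373 was at 1736, 14.3 and 25.5 CPM in old WT and 3.94, 3.90 and 2.39 CPM in old KO, and Olfr57 at 2.93, 662 and 3.77 CPM in old WT and 2.01, 1.51 and 1.14 CPM in old KO. Of the 749 tested receptors 725 were above background in none of the 6 libraries.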
